A study of Mus musculus with 24 samples.

Results

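The stem cell transcription factors Hlf, Meis1, Mecom, Hoxa9, Prdm16 and Erg were read as 6 genes of the 17149 in the normalised count table, matched by Ensembl gene identifier. All 6 were in the table, and all 6 were among the 16215 genes kept after a filter on low values. Bulk RNA came from sorted mouse bone marrow LSK cells (lineage-negative, Sca1-positive, Kit-positive progenitors), with 3 libraries in each of 8 groups. Control mice (Ctrl) are labelled wild type with the genotype Tal1 F/F, that is, with both floxed alleles of the blood transcription factor gene Tal1 and no Cre named. Knockout mice (KO) carry VaviCre with Tal1F/F, so that the recombinase is driven by Vav regulatory sequences, which are active throughout the blood system, and mice of both genotypes carry the Rag2GFP reporter. No age is given in the labels. Each genotype gave CD135-negative LSK cells, which the labels call HSC although that gate also takes in multipotent progenitors, and CD135-positive LSK cells, called LMPP (lymphoid-primed multipotent progenitors). Both were sorted into Rag2-GFP negative and Rag2-GFP positive cells, where GFP reports activity at the Rag2 locus, one of the genes that rearrange antigen receptors. The design asks how loss of Tal1 changes these progenitors before and after they turn on the reporter. Whether the 3 libraries of a group came from different mice is not in the labels. The p-values therefore rest on library-to-library spread, some of which may be technical.

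These factors are known for keeping blood stem cells in an undifferentiated, self-renewing state. Hlf is a PAR bZIP factor whose expression marks stem cells closely, and Meis1 is a TALE homeodomain protein that binds DNA together with Pbx and Hox proteins, Hoxa9 among them. Mecom and Prdm16 encode related zinc finger proteins of the PR domain family, both required to maintain adult stem cells, and Erg is an ETS factor needed for stem cell upkeep and also active in endothelium and megakaryocytes. Most are usually turned down as cells take up a lineage, and forced expression of several of them is linked to leukaemia. TAL1 binds DNA with E protein partners at E-boxes (CANNTG), often beside GATA sites.

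All 6 genes lie on the minus strand (GRCm38/mm10, GENCODE M21). Hlf (ENSMUSG00000003949) spans bases 90336536 to 90390895 of chromosome 11, and Meis1 (ENSMUSG00000020160) bases 18879817 to 19018985 of the same chromosome. Mecom (ENSMUSG00000027684) spans bases 29951296 to 30548008 of chromosome 3, and Prdm16 (ENSMUSG00000039410) bases 154316125 to 154636873 of chromosome 4. Hoxa9 (ENSMUSG00000038227) spans bases 52223100 to 52231089 of chromosome 6, in the Hoxa cluster, and Erg (ENSMUSG00000040732) bases 95359169 to 95586593 of chromosome 16. The count is one per gene, so the long form of Mecom with its PR domain and the shorter Evi1 form cannot be told apart, and the same holds for the forms of Prdm16. Exons of Meis1 share 9.77% of their bases with the same-strand gene Gm37818 and 8.51% with the antisense gene Gm16140, so reads there may have been split or dropped. The overlaps of Mecom, Hoxa9 and Prdm16 cover 0.652, 1.52 and 1.17% of their exons.

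The start regions of Hlf, Meis1 and Mecom are shown because the comparisons below turn on these genes, and Mecom because its start sites are far apart. Each is 250 bases before a RefSeq start (GRCm38.p6), written 5′ to 3′ on the minus strand, with E-boxes (CANNTG) in capitals. The Hlf window is chr11:90390918-90391167, the Meis1 window chr11:19018970-19019219, the upstream Mecom window chr3:30509760-30510009 and the downstream one chr3:30013205-30013454.
Hlf: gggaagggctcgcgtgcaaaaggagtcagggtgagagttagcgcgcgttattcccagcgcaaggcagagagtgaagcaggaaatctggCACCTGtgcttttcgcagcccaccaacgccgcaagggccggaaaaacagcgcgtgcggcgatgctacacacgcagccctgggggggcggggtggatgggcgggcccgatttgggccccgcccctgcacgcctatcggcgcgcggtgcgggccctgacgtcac
Meis1: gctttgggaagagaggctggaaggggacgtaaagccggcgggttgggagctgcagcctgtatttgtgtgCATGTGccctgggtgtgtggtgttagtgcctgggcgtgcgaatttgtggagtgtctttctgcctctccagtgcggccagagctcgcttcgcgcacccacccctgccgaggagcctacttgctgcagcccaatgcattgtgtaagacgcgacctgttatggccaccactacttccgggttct
Mecom, upstream start: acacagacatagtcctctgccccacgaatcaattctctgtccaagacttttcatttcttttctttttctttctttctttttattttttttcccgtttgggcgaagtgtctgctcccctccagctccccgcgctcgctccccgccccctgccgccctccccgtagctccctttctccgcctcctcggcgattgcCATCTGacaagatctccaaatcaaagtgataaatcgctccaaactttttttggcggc
Mecom, downstream start: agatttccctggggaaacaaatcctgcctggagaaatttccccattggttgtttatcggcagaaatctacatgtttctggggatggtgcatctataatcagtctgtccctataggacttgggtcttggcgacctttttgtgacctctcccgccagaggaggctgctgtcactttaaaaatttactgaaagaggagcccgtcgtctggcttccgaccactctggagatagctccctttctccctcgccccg
Hlf holds 1 E-box, CACCTG, 162 bases before its start, and Meis1 holds CATGTG 181 bases before. The upstream Mecom window holds CATCTG 57 bases before the start and the letters GATA 30 bases before. The downstream Mecom window holds no E-box, but it holds TATC (GATA on the other strand) 197 bases before and GATA 26 bases before. Hlf also holds TATC, 31 bases before its start, and Meis1 holds GATA on neither strand. Of 32851 RefSeq windows of this length, 66.2% hold an E-box and 53.6% hold GATA on either strand, so such matches are common. The Pbx and Meis core TGACAG, in 15.9% of all windows, was found on either strand in the downstream Mecom window and in 1 of the 3 windows of Erg. TTACGTAA, a PAR bZIP site present in 0.113% of windows, was in none of the 9 windows of the 6 genes. A match is a run of letters, not a site shown to be bound.

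The labels were checked on marker genes. Tal1 stood between 0.499 and 518 normalised counts in the 12 KO libraries and between 326 and 2109 in the 12 Ctrl libraries, without overlap within any population. Flt3, which encodes CD135, rose from HSC to LMPP in 3 of the 4 comparisons, by 2.18 to 3.33 on the log2 scale, and was 1.57 higher in Ctrl GFP-positive cells (adjusted p = 0.0535). Rag2 rose with GFP in 3 of 4 populations, and its log2 difference in KO HSC was 2.12 (adjusted p = 0.0828). Library totals ran from 6906083 to 11969093 normalised counts, and depth in reads is unknown. Ctrl HSC GFP-positive replicate 2 and KO LMPP GFP-positive replicate 3 had 11982 and 11684 genes above 1 normalised count, against 13583 to 15957 in the others. They are called the 2 libraries of low detection, and results that rest on them are given with and without them. In bulk RNA, fewer cells that express a gene and less of its RNA per cell cannot be told apart.

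Hlf peaked in KO LMPP GFP-negative cells. There it stood at 12774, 12234 and 10914 normalised counts, a mean of 11974 ± 957 (SD, n = 3). The Ctrl LMPP GFP-negative libraries followed at 7215, 5811 and 5890, and then the Ctrl HSC GFP-negative libraries at 3848, 3217 and 5134. These 3 groups did not overlap each other. KO HSC GFP-negative cells had 2812, 1535 and 3277, KO LMPP GFP-positive cells 2075, 3087 and 1739, and KO HSC GFP-positive cells 1789, 2389 and 1713, and neighbours from the Ctrl HSC GFP-negative group down to here overlapped. The KO HSC GFP-positive libraries did not overlap those of Ctrl LMPP GFP-positive cells, next in order. The lowest means were 1195 ± 266 in Ctrl LMPP GFP-positive and 1190 ± 783 in Ctrl HSC GFP-positive cells, the second from 1878, 338 and 1355. The library at 338 is one of the 2 of low detection.

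**Figure D1:**
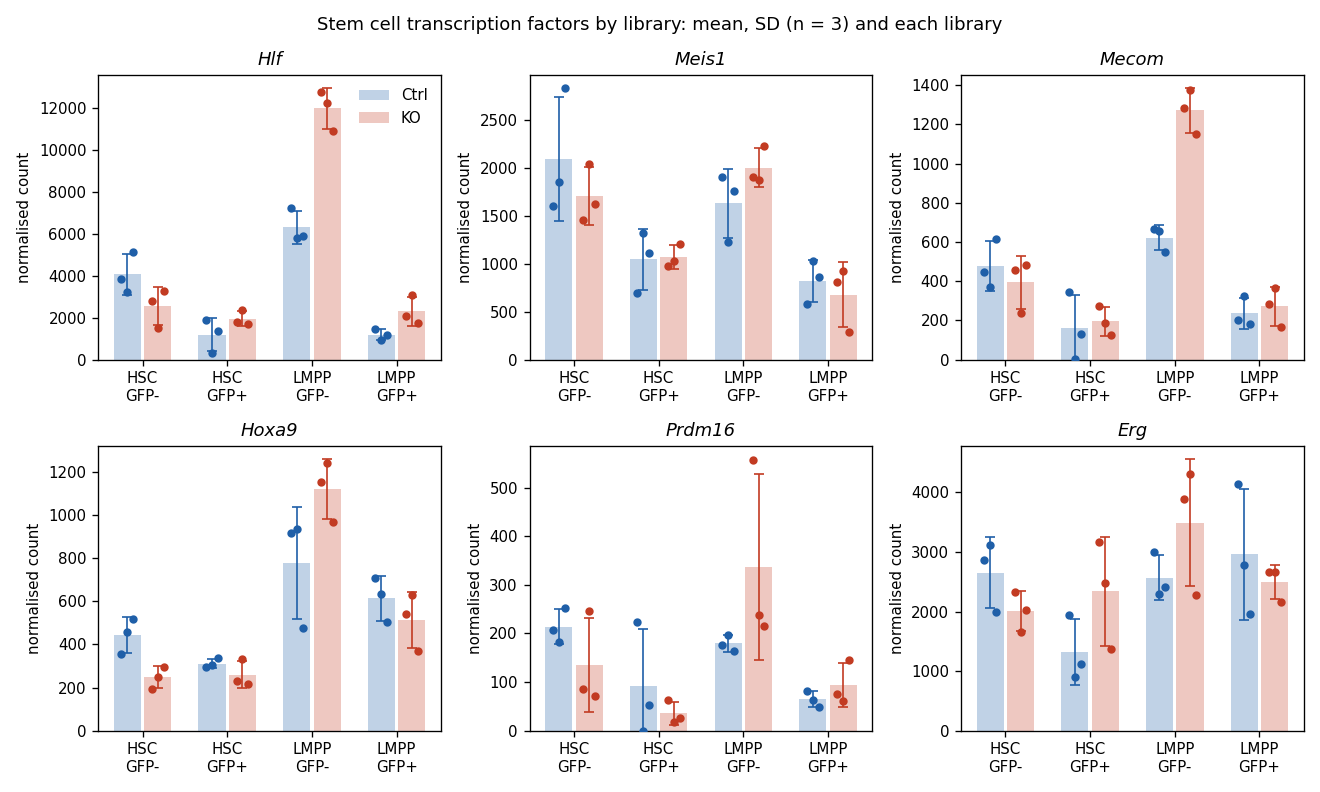
Normalised counts of each gene (vertical axis) in the 4 populations (horizontal axis), with Ctrl in blue and KO in red. Bars are means from 0, error bars are SD of n = 3 and points are libraries; the 3 KO LMPP GFP-negative points of Hlf sit between 10914 and 12774, above every other library.

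Meis1 followed the reporter more than the population. Its GFP-negative groups had means of 2094 ± 648 in Ctrl HSC, 2003 ± 199 in KO LMPP, 1708 ± 303 in KO HSC and 1629 ± 361 in Ctrl LMPP (SD, n = 3), and neighbours in this order overlapped. All 4 GFP-positive groups had lower means, between 1072 ± 123 in KO HSC and 677 ± 340 in KO LMPP. Neighbouring groups were free of overlap at 1 place in the order only. It lay between Ctrl LMPP GFP-negative libraries (1910, 1222 and 1755) and KO HSC GFP-positive libraries (977, 1029 and 1211). Even so, Ctrl HSC GFP-positive replicate 2, a library of low detection, stood at 1323, above the Ctrl LMPP GFP-negative library at 1222.

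Mecom and Hoxa9 also had their highest group in KO LMPP GFP-negative cells. Mecom stood there at 1283, 1375 and 1152 normalised counts, above all libraries of the next group, Ctrl LMPP GFP-negative, at 664, 655 and 549. Its lowest group was Ctrl HSC GFP-positive with 344, 3.27 and 133, and between these the neighbouring groups overlapped. Hoxa9 stood at 1154, 1243 and 969 in KO LMPP GFP-negative cells and at 917, 938 and 477 in the Ctrl. The lowest Hoxa9 group was KO HSC GFP-negative at 195, 249 and 297, and all 4 HSC groups had lower means than all 4 LMPP groups. Per kb of merged exon, KO LMPP GFP-negative levels were 1792 for Hlf, 1008 for Erg, 201 for Hoxa9, 190 for Meis1, 102 for Mecom and 36.2 for Prdm16.

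Prdm16 was the scarcest of the 6 per kb in every group, with means from 35.2 ± 24.5 normalised counts in KO HSC GFP-positive to 337 ± 192 in KO LMPP GFP-negative cells. Every pair of neighbouring groups overlapped, and in the highest group 1 library at 558 stood apart from 238 and 215. Erg had the smallest ratio of highest to lowest group mean of the 6, running from 1320 ± 547 in Ctrl HSC GFP-positive to 3492 ± 1067 in KO LMPP GFP-negative cells. Its neighbouring groups overlapped at every step.

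The question of higher Hlf and Meis1 in KO LMPP had a different answer for each gene. Hlf was above every Ctrl library in both GFP gates, by 1.9-fold, without passing adjustment over all genes. In GFP-negative LMPP the KO libraries (12774, 12234 and 10914) all lay above the Ctrl libraries (7215, 5811 and 5890). The log2 difference was 0.93 (SE 0.40, 95% interval 0.11 to 1.75, adjusted p = 1 in limma). In GFP-positive LMPP the KO libraries (2075, 3087 and 1739) again all lay above the Ctrl libraries (1467, 935 and 1182), with a log2 difference of 0.92 (SE 0.40, adjusted p = 0.626). Averaged over both gates the difference was 0.93 (SE 0.28, interval 0.35 to 1.51, adjusted p = 0.63), and its sign was the same in every fit that left out 1 library (0.81 to 1.02). That average passed once the 2 libraries of low detection were left out (1.02, adjusted p = 0.0117), and it passed when libraries were weighted by their quality (1.03, adjusted p = 0.00161). In the GFP-negative gate Hlf passed when only those 6 libraries were fitted (adjusted p = 0.0419). For each gate alone an exact two-sided permutation test gave p = 0.1, the smallest that 3 against 3 libraries allow.

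Meis1 was not higher in KO LMPP beyond the spread of its libraries. The GFP-negative KO libraries had 1906, 1871 and 2232 normalised counts and the Ctrl libraries 1910, 1222 and 1755, which overlap. The log2 difference was 0.32 (SE 0.35, interval -0.39 to 1.03, adjusted p = 1). GFP-positive KO libraries had 810, 930 and 290 against 584, 1024 and 858 in Ctrl, a difference of -0.41 (SE 0.35, adjusted p = 0.742). Without KO replicate 3, the library of low detection at 290, that difference was 0.12. Over both gates it was -0.04 (SE 0.24, interval -0.55 to 0.46).

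In GFP-negative LMPP the other 4 genes also had values above 0 for KO against Ctrl. The log2 differences were 1.02 (SE 0.76) for Mecom, 0.58 (SE 0.32) for Hoxa9, 0.76 (SE 0.88) for Prdm16 and 0.40 (SE 0.32) for Erg, each with adjusted p = 1. None of the 6 genes passed in this comparison, where 0.0555% of all genes passed in either direction. At an unadjusted p under 0.05 there was 1 of the 6, Hlf, against 2.48% of all genes. In 4 of the 6 (Hlf, Mecom, Hoxa9 and Prdm16) every KO library lay above every Ctrl library, against 5.38% of all genes. With only these 6 libraries fitted, Mecom passed along with Hlf (adjusted p = 0.0431). The median of the 6 differences was 0.67, beside -0.01 over all genes.

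In GFP-positive LMPP none of the 6 passed (0.0432% of all genes did), and 1 of 6, Hlf, had an unadjusted p under 0.05, against 7.72% of all genes. Hlf was the only one of the 6 whose KO libraries all lay above Ctrl, against 4.3% of all genes. Mecom, Hoxa9, Prdm16 and Erg had log2 differences of 0.17, -0.27, 0.44 and -0.19, and the median of all 6 was -0.01, beside -0.10 over all genes. Averaged over both LMPP gates 0.0863% of all genes passed and no member did. There too Hlf alone, 1 of 6, had an unadjusted p under 0.05, against 4.63% of all genes. In GFP-positive LMPP erythroid markers summed to 190 to 969 ppm in KO and 91.8 to 155 ppm in Ctrl, with 5 of 12 higher in KO (Hbb-bs, Slc4a1, Hba-a2, Hbb-bt and Hba-a1), and their part in the Hlf difference was not tested.

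**Figure D2:**
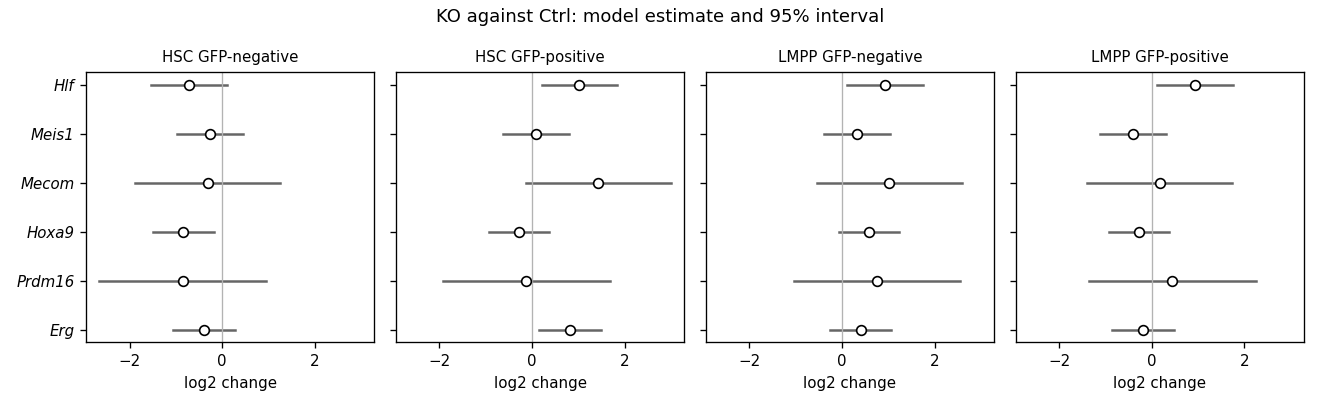
Log2 difference of KO against Ctrl (horizontal axis) for the 6 genes in 4 populations, as the limma estimate (circle) with its 95% interval (line). No circle is filled because none passed; the Hlf interval lies above 0 in both LMPP gates (0.11 to 1.75 in GFP-negative cells) and in GFP-positive HSC (0.21 to 1.84).

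Other cell types' markers moved with genotype in the same LMPP GFP-negative libraries. Summed erythroid markers (12 genes) ran from 601 to 638 ppm in KO and from 290 to 368 ppm in Ctrl, with Hba-a1 and Hbb-bs higher by 4.07 and 4.64 on the log2 scale. Mast cell and basophil markers (8 genes) summed to 11.5 to 357 ppm in KO and 0.986 to 3.75 ppm in Ctrl. Mcpt8 was at or near 0 in KO, and Cma1, Mcpt4, Tpsb2, Ms4a2 and Fcer1a were at or near 0 in Ctrl. Neutrophil and monocyte markers (10 genes) summed to 230 to 280 ppm in KO against 891 to 1329 ppm in Ctrl. Megakaryocyte markers (9 of 10 listed genes tested) summed to 25.8 to 44.1 ppm in KO and 13.97 to 19.9 ppm in Ctrl, with Gp1bb and Treml1 at or near 0 in both. The part of these cells in the differences of the 6 genes was not tested. Endothelial markers, of interest because Erg, Meis1 and Mecom are used in endothelium, summed to 172 to 220 ppm in KO and 145 to 216 ppm in Ctrl, none of 7 passed, and Plvap was at most 5.49 normalised counts in KO and 17.7 in Ctrl. Cdh5, Kdr and Lyve1 were not analysed here.

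In GFP-negative HSC the values ran the other way. All 6 genes had log2 differences below 0 for KO against Ctrl, none passed (0.16% of all genes passed), 1 of 6 had an unadjusted p under 0.05 (3.44% of all genes), and the median was -0.56, beside 0.02 over all genes. Hoxa9 was the one gene whose KO libraries (195, 249 and 297) all lay below the Ctrl libraries (356, 458 and 520), against 6.03% of all genes. Its difference was -0.84 (SE 0.32, interval -1.50 to -0.19, adjusted p = 1). Hlf differed by -0.72 (SE 0.40), with 2812, 1535 and 3277 in KO and 3848, 3217 and 5134 in Ctrl, and the KO library at 3277 overlapped the Ctrl range. Prdm16, Erg, Mecom and Meis1 differed by -0.85, -0.39, -0.31 and -0.26. The mast cell and basophil markers summed to 285 to 1229 ppm in these KO libraries and to 26.7 to 69.1 ppm in Ctrl, and their part was not tested.

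In GFP-positive HSC no member passed (0.432% of all genes did), and 0 of the 6 were free of overlap, against 14.3% of all genes. Hlf and Erg, 2 of 6, had an unadjusted p under 0.05, against 15.3% of all genes. Hlf stood at 1789, 2389 and 1713 in KO and 1878, 338 and 1355 in Ctrl, a log2 difference of 1.02 (SE 0.40, adjusted p = 0.224). Mecom differed by 1.43 (SE 0.76, adjusted p = 0.376) and Erg by 0.82 (SE 0.32, adjusted p = 0.229), while the median over all genes was 0.19. The Hlf and Mecom values rested largely on Ctrl replicate 2, the library of low detection, with Hlf at 338, Mecom at 3.27 and Prdm16 at 0.0321. Without it Hlf differed by 0.28, Mecom by -0.20 and Erg by 0.58. With values rescaled to library totals Erg passed (1.25, adjusted p = 0.0477). Erythroid markers summed to 186 to 305 ppm in these KO libraries and 43.9 to 92.0 ppm in Ctrl, with 3 of 12 higher in KO (Hba-a1, Hbb-bs and Slc4a1). Mast cell and basophil markers summed to 214 to 400 ppm in KO and 63.6 to 150 ppm in Ctrl, with 1 of 8 passing (Ms4a2, higher in KO), and Bcl11b, 1 of 4 T and B lineage markers, was lower in KO. The part of these cells was not tested. Averaged over both HSC gates, none of the 6 passed and 0.358% of all genes did. Hoxa9 was the 1 of 6 with an unadjusted p under 0.05 there, against 9.65% of all genes.

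Between the GFP gates, Hlf was the gene that changed most often: it fell in 3 of the 4 populations. In Ctrl HSC, Hlf and Mecom fell in GFP-positive cells and 4 of the 6 did not pass, where 1.95% of all genes fell. Hlf went from 3848, 3217 and 5134 to 1878, 338 and 1355, without overlap, a log2 change of -2.06 (SE 0.40, adjusted p = 0.00442), and it passed in every fit that left out 1 library. When only these 6 libraries were fitted it did not pass (adjusted p = 0.204). Mecom changed by -2.74 (SE 0.76, adjusted p = 0.0495), from 446, 372 and 617 to 344, 3.27 and 133. That call rested on Ctrl GFP-positive replicate 2: without it the change was -1.11 (adjusted p = 0.232). Leaving out any of the 3 Ctrl GFP-negative libraries also ended it. In 5 of the 6 genes, all but Prdm16, the groups did not overlap, against 12.1% of all genes lower without overlap. Erg differed by -1.06 (adjusted p = 0.0786), Meis1 by -1.005 (0.118), Prdm16 by -2.52 (0.122) and Hoxa9 by -0.49 (0.431). Leaving out Ctrl GFP-positive replicate 2 brought Prdm16 to -0.92, Erg to -0.82 and Hlf to -1.32. Without the 2 libraries of low detection Meis1 passed (-1.20, adjusted p = 0.0114). Erg passed with values rescaled to library totals (-1.35, adjusted p = 0.0178) and with a replicate block by description number (adjusted p = 0.0229). The median over all genes was -0.24 in this comparison, and the median of the 6 was -1.56.

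In Ctrl LMPP, Hlf fell by 2.41 on the log2 scale (SE 0.40, adjusted p = 0.00911), from 7215, 5811 and 5890 to 1467, 935 and 1182, and it was the only one of the 6 genes to pass, where 0.0247% of all genes fell. Leaving out GFP-negative replicate 1, GFP-negative replicate 3 or GFP-positive replicate 2 ended that call, with adjusted p up to 0.129 and changes between -2.57 and -2.25. Hlf, Meis1, Mecom and Prdm16 did not overlap between the gates and were lower in GFP-positive cells, against 8.23% of all genes. Meis1 differed by -0.995 (SE 0.35, adjusted p = 0.587), with 1910, 1222 and 1755 against 584, 1024 and 858. Mecom differed by -1.42, Prdm16 by -1.45 and Hoxa9 by -0.29, and Erg by 0.15.

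In KO LMPP, Hlf and Meis1 fell and 4 of the 6 did not pass, where 0.567% of all genes fell. Hlf went from 12774, 12234 and 10914 to 2075, 3087 and 1739, a log2 change of -2.42 (SE 0.40, adjusted p = 0.00186), and passed in every fit that left out 1 library. Meis1 went from 1906, 1871 and 2232 to 810, 930 and 290, a change of -1.72 (SE 0.35, adjusted p = 0.0121). Without KO GFP-positive replicate 3, the library at 290, Meis1 changed by -1.20 and did not pass (adjusted p = 0.0819). Mecom stood at 1283, 1375 and 1152 in GFP-negative cells and 284, 366 and 165 in GFP-positive cells, a difference of -2.28 (SE 0.76, adjusted p = 0.156). With the 2 libraries of low detection left out, Mecom passed (-1.96, adjusted p = 0.00774). Hoxa9 differed by -1.15 (SE 0.32, adjusted p = 0.0816) and Prdm16 by -1.76 (0.335). In 5 of the 6 genes, all but Erg, the GFP-positive libraries all lay below the GFP-negative ones, against 11% of all genes.

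KO HSC was the population in which no member passed between the GFP gates, where 0.376% of all genes passed. At an unadjusted p under 0.05 there were 0 of 6 members, against 5.41% of all genes. Hlf stood at 2812, 1535 and 3277 in GFP-negative and 1789, 2389 and 1713 in GFP-positive cells, which overlap, a difference of -0.32 (SE 0.40, interval -1.13 to 0.50). Meis1 (-0.66, adjusted p = 0.983) and Prdm16 (-1.78, adjusted p = 0.935) were lower without overlap, 2 of 6 genes, against 9.04% of all genes. Whether Hlf changed less with GFP in KO HSC than in Ctrl HSC was tested as an interaction, chosen after these values were seen. The difference was 1.75 (SE 0.56) and did not pass over all genes (adjusted p = 0.512). In fits that left out 1 library it ran from 1.005 to 2.23 and never passed. The lowest value came without Ctrl HSC GFP-positive replicate 2, the library of low detection with Hlf at 338, so the size of the difference rested largely on that library. No member passed this interaction, and 0.00617% of all genes did. Hlf and Erg, 2 of 6, had an unadjusted p under 0.05, against 7.11% of all genes. The corresponding test in LMPP passed for 0 of the 6 genes and for 0% of all genes, and at an unadjusted p under 0.05 for 0 of 6, against 3.27% of all genes.

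**Figure D3:**
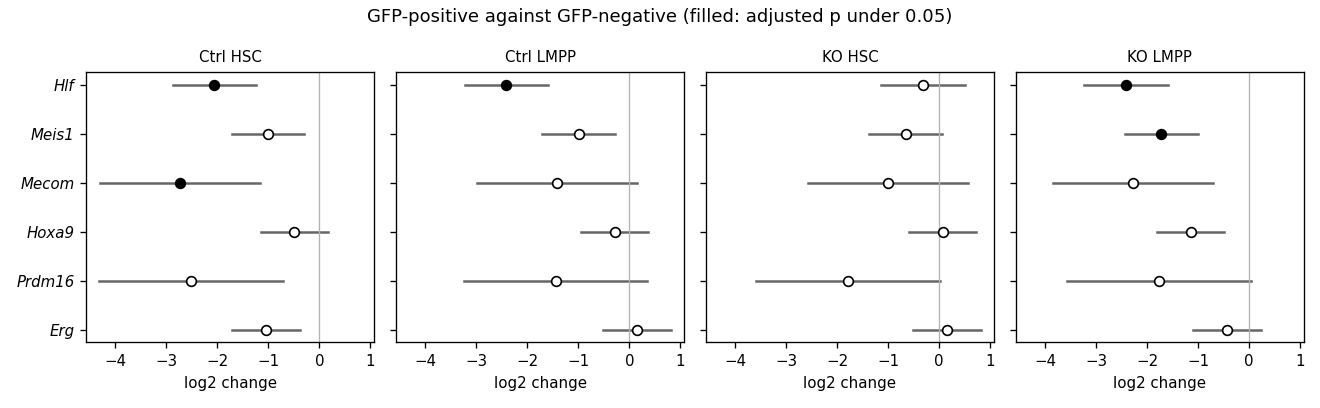
Log2 difference of GFP-positive against GFP-negative cells (horizontal axis) for the 6 genes in each genotype and population, as the limma estimate (circle) with its 95% interval (line). Filled circles mark an adjusted p under 0.05: Hlf in 3 of the 4 panels, Mecom in Ctrl HSC and Meis1 in KO LMPP.

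Markers of other cells moved with GFP as well. Of all genes, 1.95% fell and 0.765% rose with GFP in Ctrl HSC, and 0.222% fell and 0.154% rose in KO HSC. In LMPP 0.0247% fell and 0.0308% rose in Ctrl, and 0.567% fell and 0.586% rose in KO. Megakaryocyte markers summed to 176 to 223 ppm in Ctrl HSC GFP-negative and 6.86 to 14.7 ppm in GFP-positive cells, and 6 of 9 tested fell. In KO HSC the range went from 113 to 264 ppm down to 5.91 to 31.0 ppm, and 3 of 9 fell. Lymphoid markers (11 genes) went the other way in Ctrl HSC, from 868 to 942 ppm up to 1605 to 2614 ppm, with 5 of 11 rising, Dntt and Il7r among them (log2 changes of 3.87 and 5.48). Neutrophil and monocyte markers made the largest shift by sum of the marker lists in Ctrl HSC, from 1524 to 3411 ppm up to 4924 to 13642 ppm, with 5 of 10 rising, Mpo and Elane among them. Erythroid markers there went from 463 to 696 ppm down to 43.9 to 92.0 ppm, and 5 of 12 fell, Gata1 and Klf1 among them. The T lineage genes Bcl11b and Trbc1, 2 of 4 T and B lineage markers, rose, from at most 0.0898 and 10.7 normalised counts in GFP-negative libraries to 79.3 to 186 and 162 to 423 in GFP-positive ones. In KO HSC, neutrophil and monocyte markers went from 463 to 826 ppm up to 2365 to 7915 ppm, and 1 of 10 rose (Mpo). Lymphoid markers went from 534 to 871 ppm up to 1635 to 2115 ppm, and 4 of 11 rose. Mast cell and basophil markers summed to 285 to 1229 ppm in GFP-negative and 214 to 400 ppm in GFP-positive KO HSC, and 3 of 8 fell. Klf1, 1 of 12 erythroid markers, fell there, and Trbc1 rose. In LMPP the lymphoid sums went from 2298 to 3041 ppm up to 4671 to 6194 ppm in Ctrl (1 of 11 rose) and from 1623 to 2190 ppm up to 4310 to 5665 ppm in KO (5 of 11 rose). In Ctrl LMPP the megakaryocyte sum was 13.97 to 19.9 ppm in GFP-negative and at most 8.72 ppm in GFP-positive cells. None of the 9 tested passed there. In KO LMPP the sum went from 25.8 to 44.1 ppm down to at most 10.6 ppm, and 2 of 9 fell (Ppbp and Pf4). Mast cell and basophil markers there went from 11.5 to 357 ppm down to 0.711 to 9.74 ppm, and 2 of 8 fell (Mcpt4 and Cpa3). Neutrophil and monocyte markers went from 230 to 280 ppm up to 328 to 1084 ppm, and 2 of 10 rose (Irf8 and Mpo). Car2, 1 of 12 erythroid markers, and Tie1, 1 of 7 endothelial markers, also fell in KO LMPP. The part of these cells in the changes of the 6 genes was not tested.

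Between the CD135 gates, members passed in GFP-negative KO cells and in no other comparison. There Hlf and Hoxa9 rose from HSC to LMPP, 2 of 6 genes, where 0.413% of all genes rose. Hlf went from 2812, 1535 and 3277 to 12774, 12234 and 10914, a log2 change of 2.30 (SE 0.40, adjusted p = 0.00255). Hoxa9 went from 195, 249 and 297 to 1154, 1243 and 969, a change of 2.18 (SE 0.32, adjusted p = 0.000483). Both passed in every fit that left out 1 library. Mecom, at 459, 240 and 485 against 1283, 1375 and 1152, did not overlap either and differed by 1.74 (SE 0.76, adjusted p = 0.494). It passed when both libraries of low detection were left out (1.74, adjusted p = 0.00314), with libraries weighted by quality (adjusted p = 0.00162) and when the 6 libraries were fitted alone (adjusted p = 0.00219). Hlf, Hoxa9 and Mecom made 3 of 6 genes higher without overlap, against 11.2% of all genes. Prdm16 differed by 1.37, Erg by 0.76 and Meis1 by 0.24.

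Between the same KO GFP-negative groups, lymphoid markers summed to 534 to 871 ppm in HSC and 1623 to 2190 ppm in LMPP, and 6 of 11 rose, Flt3 and Dntt among them. Of all genes, 0.413% rose and 0.463% fell in this comparison. Megakaryocyte markers summed to 113 to 264 ppm in HSC and 25.8 to 44.1 ppm in LMPP, and 4 of 9 fell. Neutrophil and monocyte markers went from 463 to 826 ppm down to 230 to 280 ppm, and 3 of 10 fell (Ctsg, Mpo and Ms4a3). Mast cell and basophil markers summed to 285 to 1229 ppm in HSC and 11.5 to 357 ppm in LMPP, and 2 of 8 fell (Ms4a2 and Cpa3). Erythroid markers summed to 670 to 1049 ppm in HSC and 601 to 638 ppm in LMPP, and 2 of 12 fell (Car1 and Gata1). The part of these cells in the rise of Hlf and Hoxa9 was not tested.

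In GFP-negative Ctrl cells none of the 6 passed from HSC to LMPP (0.37% of all genes did), and 1 of 6, Hoxa9, had an unadjusted p under 0.05, against 4.59% of all genes. Hlf, at 3848, 3217 and 5134 against 7215, 5811 and 5890, was the 1 gene higher without overlap, against 7.68% of all genes, and differed by 0.65 (SE 0.40, adjusted p = 1). Hoxa9 differed by 0.75 (SE 0.32, adjusted p = 0.868), with the Ctrl LMPP library at 477 inside the HSC range. Meis1 differed by -0.34 and Erg by -0.03. The genotypes' steps from HSC to LMPP share no libraries and were compared by an interaction, which was 1.65 (SE 0.56) for Hlf and 1.43 (SE 0.45) for Hoxa9. Each had an adjusted p of 1, and the test passed for 0% of all 16215 genes. These 2 of the 6 had an unadjusted p under 0.05, against 2.37% of all genes. All 6 interaction values were above 0, with a median of 1.38 beside -0.03 over all genes. With libraries weighted by quality the Hlf value passed (1.56, adjusted p = 0.0486).

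In GFP-positive cells none of the 6 passed from HSC to LMPP in either genotype, where 0.894% of all genes passed in Ctrl and 0.611% in KO. At an unadjusted p under 0.05 there were 3 of 6 in Ctrl (Mecom, Hoxa9 and Erg), against 15.3% of all genes, and 2 of 6 in KO (Meis1 and Hoxa9), against 11.4%. Mecom differed by 1.72 in Ctrl (SE 0.76, adjusted p = 0.278). That value rested on Ctrl HSC replicate 2, the library of low detection with Mecom at 3.27, and was 0.094 without it. Hoxa9 was higher in LMPP without overlap in both genotypes. The Ctrl libraries went from 295, 304 and 335 to 708, 633 and 502, a log2 difference of 0.96 (SE 0.32, adjusted p = 0.139). The KO libraries went from 232, 332 and 216 to 544, 628 and 371, a difference of 0.97 (SE 0.32, adjusted p = 0.25). Erg was also higher in Ctrl LMPP without overlap, at 1960 to 4137 against 902 to 1940, a difference of 1.17 (SE 0.32, adjusted p = 0.0741). It passed with a replicate block by description number (adjusted p = 0.0242) and with values rescaled to library totals (1.48, adjusted p = 0.0168). These 2 of 6 genes compare with 9.4% of all genes in Ctrl, and Hoxa9 in KO with 6.95%. Meis1 was lower without overlap in KO LMPP (-0.82, adjusted p = 0.371), against 7.56% of all genes, although without KO LMPP replicate 3 the value was -0.30. Hlf differed by 0.30 in Ctrl and 0.20 in KO. The genotype by population interaction in GFP-positive cells passed for 0 of the 6 genes and for 0.0308% of all genes, and 1 of 6, Erg, had an unadjusted p under 0.05, against 12.5% of all genes.

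**Figure D4:**
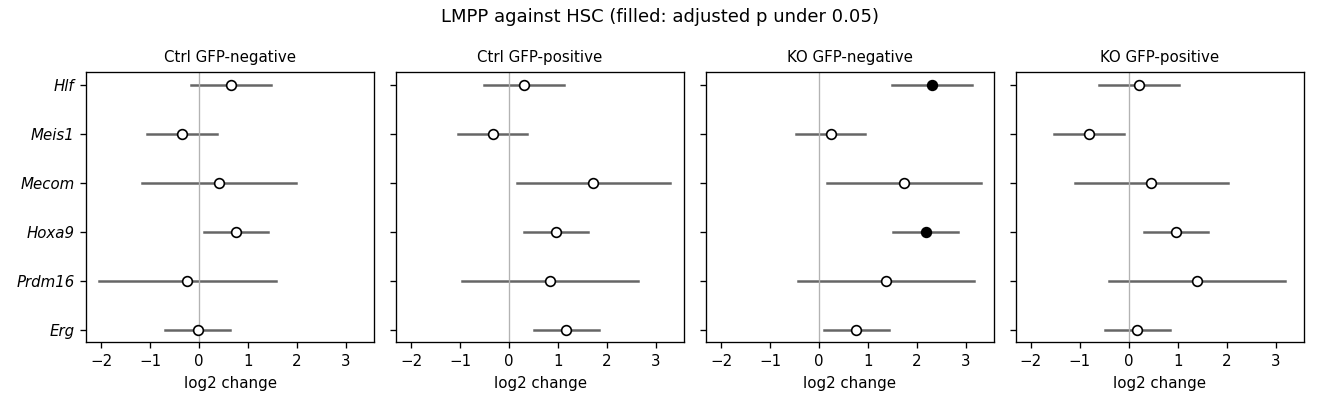
Log2 difference of LMPP against HSC (horizontal axis) for the 6 genes in each genotype and GFP gate, as the limma estimate (circle) with its 95% interval (line). Filled circles mark an adjusted p under 0.05: Hlf (2.30) and Hoxa9 (2.18) in KO GFP-negative cells.

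Among the 6 genes, Hlf and Mecom moved most closely over the 24 libraries, which come from 8 groups, so that the values describe differences between groups as well as within them. Their log2 values had a Pearson r of 0.89, and of 0.91 without the 2 libraries of low detection. Mecom with Prdm16 gave 0.85 (0.76 without those libraries) and Hlf with Prdm16 0.75 (0.66). Hlf with Meis1 gave 0.52 (0.67), and Meis1 with Erg 0.02 (-0.01). Meis1 with Hoxa9, partners on DNA, gave 0.20 (0.19).

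**Figure D5:**
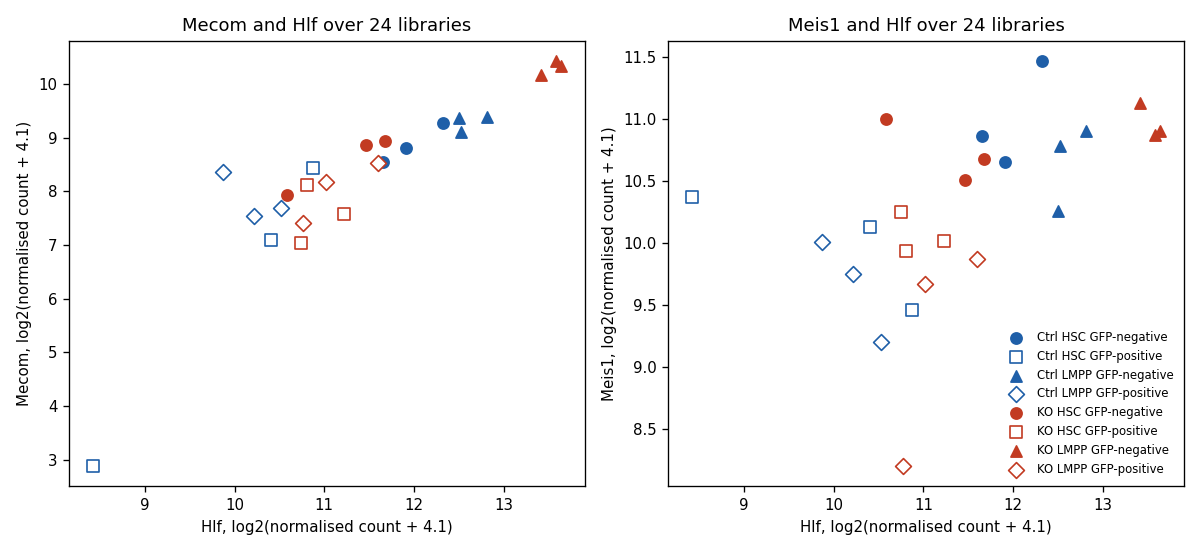
Log2(normalised count + 4.1) of Mecom (left) and Meis1 (right) against Hlf, 1 point per library. Blue is Ctrl, red is KO, filled symbols are GFP-negative and open symbols GFP-positive; Mecom follows Hlf (r = 0.89), with Ctrl HSC GFP-positive replicate 2 far down at the left, and Meis1 follows it less (r = 0.52), with KO LMPP GFP-positive replicate 3 lowest.

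Genes whose log2 values were most like each member over the 24 libraries were taken from 9774 candidates of at least 5 ppm on average. For Hlf they were Crispld1 (r = 0.84), Lmo2 (0.83), which encodes a bridging partner of TAL1, and Rgs1 (0.83), a regulator of G protein signalling. Meis1 was most like Tie1 (0.89), an endothelial and stem cell receptor kinase, and Fry (0.87). Mecom was most like Rgs1 (0.91), Fsd1l (0.89) and Tbxas1 (0.88), and Prdm16 like Tbxas1 (0.88), Enpp5 (0.86) and Prrc2b (0.83). Several of these ranks rested on the 2 libraries of low detection. Without them Fsd1l was at rank 67 for Mecom (r = 0.70), Rgs1 at rank 22 for Hlf (0.77) and 16 for Mecom (0.79), Tbxas1 at rank 17 for Mecom (0.78), and Enpp5 at rank 14 for Prdm16 (0.74). The other genes named here were within the first 10. Hoxa9 was most like Sema3d (0.88), Crybg1 (0.86) and Lpp (0.86), and Erg like Slc25a23 (0.87), Arid4a (0.85) and Irf5 (0.82).

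The cofactors and relatives of the 6 factors (Pbx, Hox, PAR bZIP, ETS and Prdm genes, and the CtBP corepressors) were 36 genes, of which 32 were tested. None of the 32 passed for KO against Ctrl in any of the 4 populations, and 0 to 5 of them had an unadjusted p under 0.05. The 5 were in GFP-positive HSC, where 15.3% of all genes had one; the shares of all genes in GFP-negative HSC, GFP-negative LMPP and GFP-positive LMPP were 3.44, 2.48 and 7.72%. Hoxb5, another stem cell marker, fell with GFP in Ctrl HSC (-3.03, adjusted p = 0.0492), and Nfil3, a repressor that binds the same sites as Hlf, rose (3.31, adjusted p = 0.0287). The list median there was -0.92, beside -0.24 over all genes. In GFP-positive Ctrl cells Hoxa6, a neighbour of Hoxa9 in its cluster, rose from HSC to LMPP (3.73, adjusted p = 0.0102).

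Of 20 other stem cell transcription factors, all tested, none passed for KO against Ctrl in any population, with 0 to 4 at an unadjusted p under 0.05, the 4 again in GFP-positive HSC (15.3% of all genes). In Ctrl HSC, Gata2 and Foxo3 fell with GFP (-4.62 and -0.96, adjusted p = 0.0263 and 0.0366). Gata2 was listed at 0.0324 in the library of low detection of that group and at 238 and 279 in the others, against 1486 to 1883 in GFP-negative cells. In KO LMPP, Ikzf2 and Nfe2 fell with GFP (-1.82 and -1.87, adjusted p = 0.000586 and 0.0223). Zbtb16 was lower in LMPP than in HSC in all 4 comparisons, and Ikzf2 in KO GFP-positive cells (-1.48, adjusted p = 0.00459). Of 12 genes reported as downstream of these factors, none passed for KO against Ctrl, with 0 to 2 at an unadjusted p under 0.05, the 2 in each HSC gate (3.44% of all genes in GFP-negative and 15.3% in GFP-positive cells). Gata2 is on that list too. Trib2, a pseudokinase gene known as a Meis1 target in leukaemia, fell with GFP in Ctrl HSC (-4.01, adjusted p = 0.0138) and KO HSC (-4.92, adjusted p = 0.00728), to at most 16.3 normalised counts in GFP-positive HSC libraries.

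Stem cell surface and quiescence markers (16 of 17 tested) did not pass for KO against Ctrl in any of the 4 populations, with 0 to 5 at an unadjusted p under 0.05, the 5 in GFP-negative HSC (3.44% of all genes). With GFP, Vwf, Tek and Fgd5 fell in Ctrl HSC, and Ifitm1 and Procr in KO LMPP, with list medians of -1.43 and -1.46 beside -0.24 and -0.22 over all genes. In Ctrl LMPP, where Hlf fell, none of the 16 passed with GFP, and 0.0555% of all genes did. The list median there was -1.32 beside -0.04 over all genes, and 9 of 16 had an unadjusted p under 0.05 (4.96% of all genes). In KO HSC none passed either. Its list median was -0.76 beside -0.05, and 6 of 16 had an unadjusted p under 0.05 (5.41% of all genes). From HSC to LMPP in KO GFP-negative cells, Ly6a, which encodes the sorting antigen Sca1, rose (2.77, adjusted p = 0.0318). In Ctrl GFP-negative cells Vwf and Tek fell instead, and neither Hlf nor Hoxa9 passed.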

How the data were processed

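The submitters' processing notes name Trimmomatic 0.33, HTSeq 0.6.1 and edgeR (no version) with the build mm10, with an aligner not given in the sources used here. Values deposited by the authors are a signal, their normalised counts. Only 0.59% of values above 0 came within 0.001 of whole numbers, and limma was therefore used in place of a count model. GENCODE M21 named 16985 of 17149 identifiers. A gene was tested if it reached 1 ppm of the library total in 3 or more libraries. Tests used log2(value + 4.1), an offset of 0.5 ppm of the mean library total that understates changes of low genes. One limma 3.58.1 model (R 4.3.3) held 8 group means over 24 libraries, with trended empirical Bayes and 16 residual plus 9.53 prior degrees of freedom. For each of 18 comparisons, p-values were adjusted by Benjamini-Hochberg over all genes tested. The words rose and fell, and passed, mean an adjusted p under 0.05. The fit was tested on simulated data.

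The 6 genes and all lists were chosen with earlier results of these data known. For each of the 6, the 3 genes of highest Pearson r were named, and from the lists those that passed, up to 6; some of these genes are not reported here. Alternatives were another pseudocount, no filter, rescaling to library totals, array weights, replicate blocks, the compared groups alone and leaving out libraries. Promoter sequences are RefSeq's (GRCm38.p6), matched by symbol for 6 of 6 genes. Comparisons with a group in common share its libraries.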

Additional observations from a re-analysis of the deposited data

Results flagged for a closer look

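Hoxa9 values for KO against Ctrl had opposite signs in the 2 GFP-negative populations, and neither passed (adjusted p = 1 for each, limma). In HSC the value was -0.84 on the log2 scale and every KO library lay below every Ctrl library, against 6.03% of all genes. In LMPP it was 0.58 and every KO library lay above every Ctrl library, against 5.38% of all genes. The interaction of genotype and population was 1.43 (SE 0.45, limma) and did not pass over all genes (adjusted p = 1).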

How the results depend on the processing

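Outside single left-out libraries, 720 pairs of gene and alternative were compared with the reported values. In 669 the direction and the side of the threshold were the same, 24 newly passed, 7 no longer passed and 20 changed sign. The number of the 6 genes passing moved by over 1.5 times as follows. With rescaling to library totals it was 1 in HSC GFP-positive cells for KO against Ctrl, and 1 in Ctrl GFP-positive cells for LMPP against HSC. With array weights it was 1 for KO against Ctrl over both LMPP gates, 4 and 1 for LMPP against HSC in KO GFP-negative and GFP-positive cells, 1 and 2 for GFP in Ctrl HSC and Ctrl LMPP, 5 for GFP in KO LMPP and 1 for genotype by population in GFP-negative cells. Without the 2 libraries of low detection it was 1 for KO against Ctrl over both LMPP gates. With the smaller pseudocount, or without the filter, it was 1 for GFP in Ctrl HSC. With the compared groups alone it was 2 for KO against Ctrl in LMPP GFP-negative cells, and for GFP 0 in Ctrl HSC, 2 in Ctrl LMPP and 1 in KO LMPP. With one library left out, KO against Ctrl gave 0 to 2 in HSC GFP-positive cells, as did LMPP against HSC in Ctrl GFP-positive cells. The count ran for GFP from 1 to 4 in Ctrl HSC, 0 to 1 in Ctrl LMPP and 1 to 2 in KO LMPP. The cause was not tested. Smaller moves, from 2 to 3, were Mecom for LMPP against HSC in KO GFP-negative cells (without the 2 libraries of low detection, and with the compared groups alone), Mecom for GFP in KO LMPP (without those libraries) and Erg for GFP in Ctrl HSC (with rescaling).

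A replicate block, by replicate number or by the number in the descriptions, moved 2 counts, both through Erg: LMPP against HSC in Ctrl GFP-positive cells passed for 1 gene (adjusted p = 0.0218 and 0.0242), and GFP in Ctrl HSC for 3 (adjusted p = 0.0213 and 0.0229). Of 36 library pairs sharing a description number, 8 deviated together with r above 0.1 (median 0.0584). Of 72 pairs of one genotype with other numbers, 1 did (median -0.0337). Within their genotype, 24 of 24 libraries correlated best with their own description number. The labels do not say what the number stands for. The reported fit did not pair samples by it, so any shared source is left out of the reported p-values.

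Sign changes were all of values that did not pass. Under rescaling, for KO against Ctrl, Hoxa9 was 0.14 and Prdm16 0.11 in HSC GFP-positive cells, Mecom -0.047 in LMPP GFP-positive cells, and Hoxa9 -0.019 and Erg -0.066 over both LMPP gates. For LMPP against HSC, Erg was 0.12 in Ctrl GFP-negative cells, and Hlf -0.14 and Erg -0.17 in KO GFP-positive cells. Prdm16 was 0.51 in HSC GFP-positive cells with the smaller pseudocount. Under array weights and without the 2 libraries of low detection, Meis1 was 0.13 and 0.12 in LMPP GFP-positive cells and 0.20 and 0.22 over both gates. Under the same settings, for LMPP against HSC in Ctrl GFP-positive cells, Hlf was -0.12 and -0.44 and Prdm16 -0.092 and -0.76, and for genotype by GFP in HSC Prdm16 was -0.12 and -0.86. Without those libraries Mecom was -0.20 in HSC GFP-positive cells, KO against Ctrl.

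With one library left out, KO against Ctrl ran in HSC GFP-negative cells from -0.49 to 0.012 for Mecom. In HSC GFP-positive cells it ran from -0.18 to 0.27 for Meis1, -0.20 to 2.58 for Mecom and -1.72 to 1.18 for Prdm16. In LMPP GFP-positive cells it ran from -0.72 to 0.12 for Meis1, -0.078 to 0.49 for Mecom and -0.45 to 0.089 for Erg, and over both gates from -0.20 to 0.22 for Meis1, -0.0042 to 0.26 for Hoxa9 and -0.023 to 0.25 for Erg. LMPP against HSC ran from -0.23 to 0.095 for Erg in Ctrl GFP-negative, -0.44 to 0.79 for Hlf and -0.76 to 2.13 for Prdm16 in Ctrl GFP-positive, and -0.032 to 0.38 for Hlf and -0.17 to 0.43 for Erg in KO GFP-positive cells. GFP ran from -0.13 to 0.41 for Erg in Ctrl LMPP, and in KO HSC from -0.12 to 0.21 for Hoxa9 and -0.11 to 0.50 for Erg. Genotype by GFP in HSC ran from -0.86 to 2.03 for Prdm16.

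Counts of all genes passing depended strongly on the setting: from 0 to 1198 for GFP in Ctrl HSC (441 as reported), 8 to 799 for GFP in KO LMPP (187), 37 to 1059 for LMPP against HSC in KO GFP-negative cells (142) and 0 to 44 for KO against Ctrl in LMPP GFP-negative cells (9). Rescaling moved the median over all genes for KO against Ctrl to 0.52 in HSC GFP-positive and -0.26 in LMPP GFP-positive cells.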

Other observations

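The rank of each member among all genes of a library, by normalised count, differed widely in stability. Erg lay between the 87.8th and 99.5th percentile in the 24 libraries, with a median of 98.2. Hlf lay between the 73.6th and 99.9th and Meis1 between the 72.0th and 99.0th. Mecom ran from percentile 32.5 to 95.9 and Prdm16 from percentile 26.2 to 86.5, with medians of 76.6 and 54.1.

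Summed over the 6 genes, levels were 2398 to 2769 ppm in KO LMPP GFP-negative libraries and 1570 to 1803 ppm in the Ctrl, most of it Hlf and Erg. In GFP-positive LMPP the sums were 455 to 898 ppm in KO and 601 to 815 ppm in Ctrl. In HSC they were 783 to 1128 ppm in KO against 1056 to 1635 ppm in Ctrl among GFP-negative libraries, and 669 to 880 ppm against 240 to 560 ppm among GFP-positive libraries.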
